A study of Strongylocentrotus purpuratus with 9 samples.

Results

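The widest open chromatin regions of the purple sea urchin gastrula were described here: all listed regions whose last coordinate minus first coordinate was over 1000 bp. There were 583 of them among the 30866 regions of a list deposited for Strongylocentrotus purpuratus embryos at 2 dpf (days post fertilisation). The list goes with 4 ATAC-seq libraries, 2 from isolated guts and 2 from whole embryos; the series' 5 single-cell RNA libraries were not analysed here. Guts had been freed mechanically from embryos in a calcium- and magnesium-free medium with glycine and EDTA, and the labels name no genetic change or treatment for any group. The titles of the 2 whole-embryo ATAC-seq libraries hold the letters "wt", which the titles do not spell out. The list has no column for a library or a tissue, so a wide region cannot be assigned to gut or whole embryo, and no value per replicate exists. The label "wide" rests on width alone, and the genes and sequence at these regions were not analysed here.

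ATAC-seq uses the transposase Tn5, which inserts sequencing adapters into DNA that is not wrapped tightly around nucleosomes. Piled-up insertions mark accessible stretches, which in animals include promoters, where transcription starts, and enhancers, where transcription factors bind to direct expression in particular tissues. In other animals, unusually broad accessible stretches are known from promoters of very active genes and from groups of adjoining enhancers. In the sea urchin gastrula, the gut is being partitioned into foregut, midgut and hindgut, and the study drew up a gene regulatory network for its posterior part.

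The members were chosen by width, so their widths are given as a description with no test. The 583 wide regions had a mean width of 1218 ± 252 bp (SD over regions) and a median of 1144 bp, with quartiles at 1062.5 and 1260.5 bp. The 10th and 90th percentiles were 1023 and 1498 bp, and the widest region measured 2703 bp. Most wide regions therefore stood close to the threshold: 213 (36.5%) were up to 1100 bp wide and another 160 were over 1100 and up to 1200 bp wide. Only 56 (9.61%) exceeded 1500 bp, of which 14 exceeded 2000 bp, and these 56 held 14.4% of the base pairs in wide regions.

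The threshold cut through a continuous tail and not through a gap in the widths. The 213 regions in the first 100 bp above it compare with 363 in the last 100 bp below it, over 900 and up to 1000 bp. Just inside the threshold were pCRM_4150 with 1001 bp, pCRM_1427, pCRM_15469 and pCRM_31297 with 1002 bp each, and pCRM_303 with 1003 bp. Just outside it were pCRM_6897, pCRM_8729, pCRM_14671, pCRM_28915 and pCRM_40321, all of exactly 1000 bp. In steps of 50 bp, the number of regions fell from step to step between 1000 and 1400 bp, with 122 at the start and 9 at the end. In the next 4 steps, up to 1600 bp, it was 15, 20, 10 and 11, so that the step that ends at 1500 bp held more regions than the 2 before it.

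**Figure D1:**
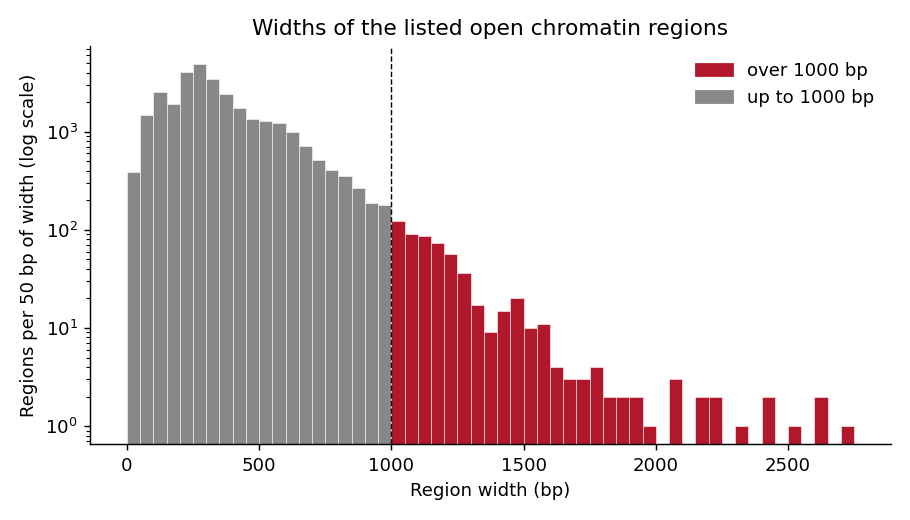
Number of listed regions per 50 bp of width (log scale), with the 583 regions over 1000 bp in red and the rest of the list in grey; the dashed line is the 1000 bp threshold. The red tail continues the slope of the grey distribution, reaches 9 regions in the step up to 1400 bp, shows 20 in the step up to 1500 bp and ends at 2703 bp.

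The 10 widest regions differed in where they lay. The widest, pCRM_23193 (2703 bp), and the region next to it, pCRM_23194 (1066 bp), were the only listed regions of Scaffold3051, 12481 bp apart. The second, pCRM_17697 (2647 bp), was the first of 3 listed regions on Scaffold2318 and had a neighbour of 276 bp at a distance of 1540 bp. On Scaffold790, pCRM_41128 (2603 bp) had neighbours on both sides at 4149 and 5444 bp, and on Scaffold811, pCRM_41667 (2523 bp) had them at 6128 and 5217 bp. In contrast, pCRM_27400 (2450 bp) was the first of 4 listed regions on Scaffold384, with the next one 192795 bp away.

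The other members of the 10 widest ranged from 2433 to 2197 bp. On Scaffold518, pCRM_32902 (2433 bp, 507658 to 510090) had its nearest neighbour at 2118 bp. On Scaffold54, which carried 84 listed regions, pCRM_33658 (2347 bp, 1124323 to 1126669) lay 4225 bp from the nearest. The distances were 8214 bp for pCRM_38789 on Scaffold696 (2244 bp, 38574 to 40817) and 1938 bp for pCRM_2378 on Scaffold1117 (2203 bp, 6340 to 8542). The last, pCRM_2228 (2197 bp, 83130 to 85326), was the first listed region of Scaffold1107, 16034 bp from the next. These regions thus included both close and remote neighbours, and 8 of the 10 had a nearest neighbour narrower than 700 bp.

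Wide regions made up a small part of the list and a larger part of its sequence, as follows from their definition. They were 1.89% of the regions and covered 710 kb, or 6.35% of the 11.2 Mb in the list. The 7919 regions of 220 to 300 bp, around the list's most frequent widths, were 25.7% of the regions and covered 18.4% of the sequence. On the 480 scaffolds that carried a wide region, the 583 wide regions covered 710 kb and the 2754 regions of 220 to 300 bp covered 717 kb, or 16.6% and 16.7% of the listed sequence there. That choice of scaffolds keeps every wide region but only 2754 of the 7919 regions of 220 to 300 bp. The similar shares follow from it and are not a property of the list.

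Wide regions were spread thinly over many scaffolds. They occurred on 480 of the 3836 listed scaffolds (12.5%). Of these, 395 scaffolds carried 1 wide region, 69 carried 2, 14 carried 3 and 2 carried 4. Scaffold55 (47 listed regions over 1.26 Mb) and Scaffold66 (57 over 1.02 Mb) carried 4 wide regions each, and these were 8.51% and 7.02% of their listed regions. Scaffold902 had 3 wide regions among only 11 listed ones, and they held 68.5% of its listed sequence. Scaffold1640 had 3 of 25 and Scaffold509 had 3 of 28. Scaffold3, with the most listed regions (141), also had 3 wide ones, whereas Scaffold10 had none among 99.

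The share of wide regions was similar across scaffolds with 2 or more listed regions and lower, within overlapping intervals, on those with 1. It was 2.05% on scaffolds with 2 to 4 listed regions (95% exact binomial interval 1.54 to 2.68%), 1.86% with 5 to 9, 2.00% with 10 to 19, 1.92% with 20 to 49 and 1.80% with 50 or more (1.43 to 2.24%). On the 1344 scaffolds with 1 listed region it was 1.12% (15 regions, 0.626 to 1.83%), and this interval overlaps those of the other classes. These intervals cover counting error only and treat regions as independent. Scaffolds with a wide region carried a median of 18 listed regions, against 2 on the other scaffolds. That contrast follows in part from the count itself, since a scaffold with more regions has more chances to hold a wide one.

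**Figure D2:**
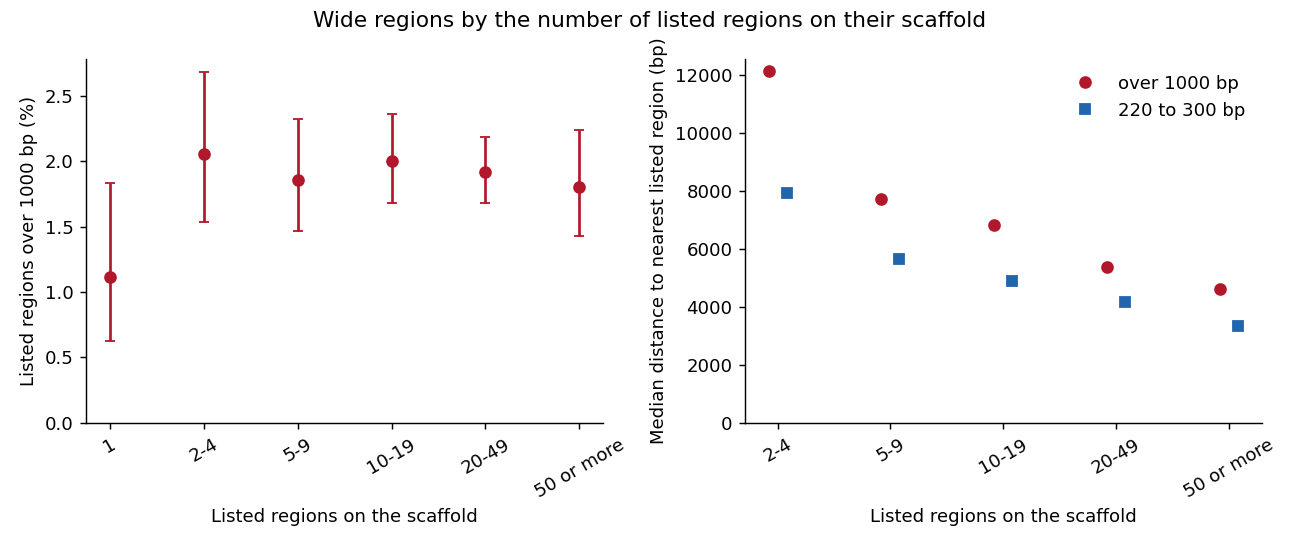
Left, share of listed regions over 1000 bp by the number of listed regions on the scaffold, with 95% exact binomial intervals; right, median distance to the nearest listed region for regions over 1000 bp (red circles) and for regions of 220 to 300 bp on all scaffolds of the class (blue squares). The share lies between 1.80% and 2.05% in the 5 classes with 2 or more regions, and the red circle is above the blue square in each of them.

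On scaffolds with many listed regions, wide ones accounted for a modest share of the listed sequence, and on some others for most of it. Over the 480 scaffolds, including those with no other listed region, wide regions held a median of 19.1% of the listed base pairs, with the middle 50% between 11.6 and 35.7%. On the 224 of these scaffolds with 20 or more listed regions, the median was 11.2% and the highest share 35.7%. In 69 scaffolds wide regions held at least 50%, and 15 of those had no other listed region. Another 236 scaffolds with 20 or more listed regions carried no wide region.

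Wide regions lay farther from their nearest listed neighbour than regions of 220 to 300 bp on the same scaffolds. The distance, measured between facing edges, had a median of 6050.5 bp over the 568 wide regions with a neighbour (95% order-statistic interval 5595 to 6685 bp) and of 3913 bp over the 2754 regions of 220 to 300 bp (3661 to 4184 bp). The middle 50% lay between 2452.5 and 13645 bp for wide regions and between 1425 and 9609 bp for the others. A neighbour within 2000 bp was present for 126 wide regions (22.2%, 95% exact binomial interval 18.8 to 25.8%) and for 904 regions of 220 to 300 bp (32.8%, 31.1 to 34.6%). Neither pair of intervals overlaps. The list gives no replicates, regions of 1 scaffold are not independent, and no test was made.

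Part of that difference depended on how the comparison was drawn. A region of 220 to 300 bp on a scaffold with many regions is counted more often than one on a sparse scaffold: the median number of listed regions on the scaffold was 21 over wide regions and 35 over the comparison regions. Scaffold by scaffold, the median distance of wide regions was the longer one in 248 of the 429 scaffolds that had both kinds, the shorter one in 163 and equal in 18. Over these scaffolds the median of the scaffold medians was 6051 bp for wide regions and 4308 bp for regions of 220 to 300 bp. Taken within each scaffold, the difference had a smaller median, 1101 bp. Among all regions of scaffolds with similar numbers of regions, wide regions were again farther from the nearest neighbour than those of 220 to 300 bp in each of 5 classes, with 12146.5 against 7930 bp on scaffolds with 2 to 4 regions and 4631 against 3341 bp on those with 50 or more. Against all 28954 narrower regions of the list with a neighbour, whose median was 5122 bp (5048 to 5217 bp), the difference was smaller, 928.5 bp.

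**Figure D3:**
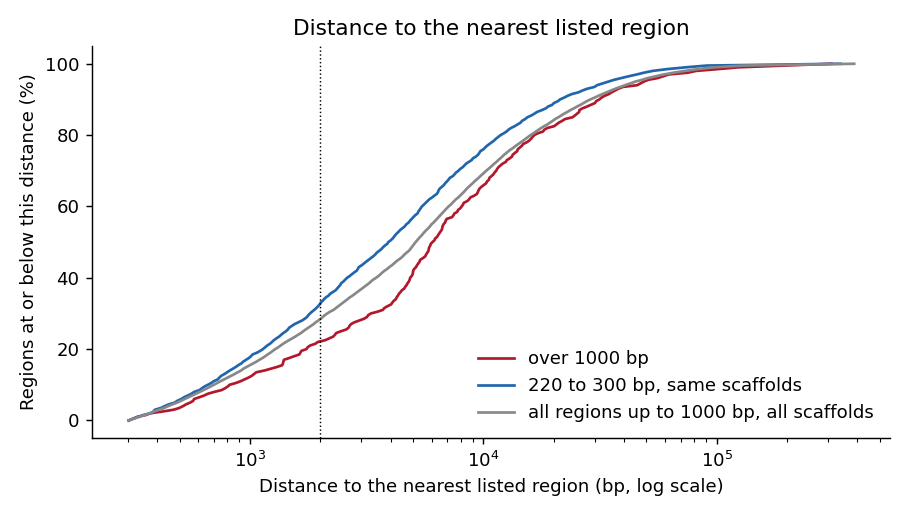
Cumulative share of regions (%) by distance to the nearest listed region (bp, log scale) for the 568 regions over 1000 bp with a neighbour (red), the 2754 regions of 220 to 300 bp on the same scaffolds (blue) and all regions of up to 1000 bp (grey); the dotted line marks 2000 bp. The red curve stands at 22.2% at 2000 bp and the blue at 32.8%, and the red curve rises slowly up to 4000 bp before it steepens.

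The longer distance was shared by regions well below 1000 bp, at both ends of the width range. Over all scaffolds, the median distance was 6205 bp for wide regions of up to 1500 bp (5675 to 6731 bp), 6424 bp for regions over 700 and up to 1000 bp and 6286 bp for those over 500 and up to 700 bp. It was 4794 bp over 300 and up to 500 bp, and 4588.5 bp for 220 to 300 bp (4388 to 4806 bp). A neighbour within 2000 bp was found for 21.4%, 21.1%, 22.7%, 30.5% and 29.8% in the same order of classes. The narrowest regions, under 100 bp, had the longest median of these classes, 6885 bp (6373 to 7533 bp), with 23.0% within 2000 bp, and those of exactly 100 bp had a median of 5475 bp. Regions over 1000 bp thus had intervals that overlap those of the classes between 500 and 1000 bp and of the class under 100 bp. The 55 regions over 1500 bp with a neighbour had a median of 5146 bp, with an interval (3188 to 8669 bp) that spans all these values.

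**Figure D4:**
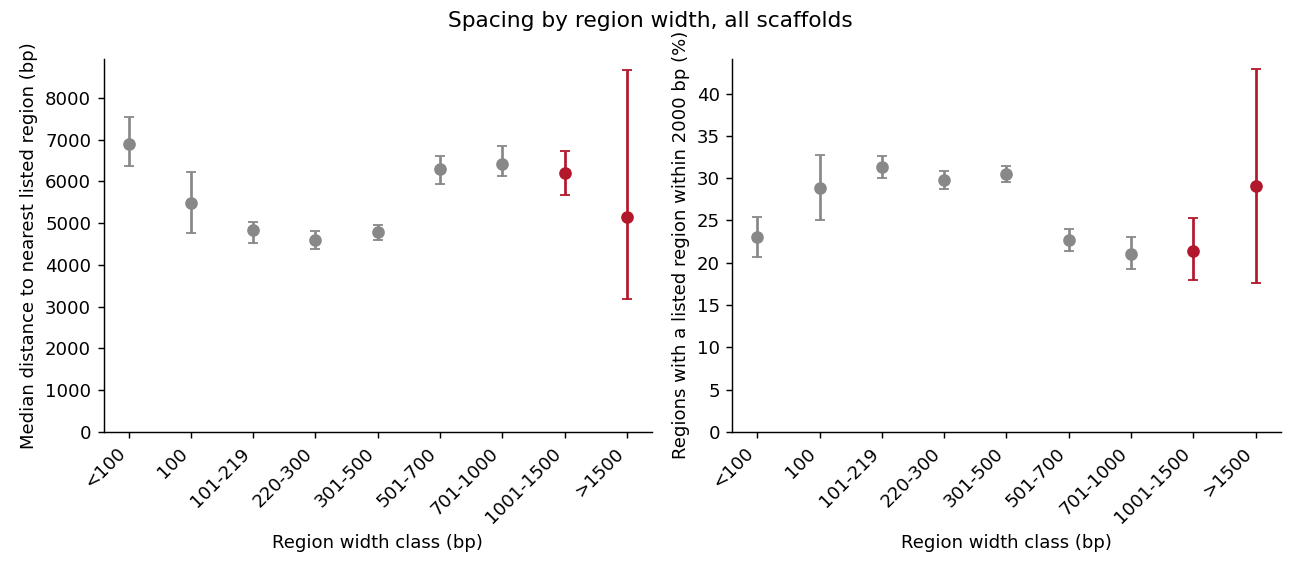
Median distance to the nearest listed region (left, bp, with 95% order-statistic intervals) and share of regions with a listed region within 2000 bp (right, %, with 95% exact binomial intervals) by width class, over all scaffolds; regions over 1000 bp are red. Medians are 4588.5 bp at 220 to 300 bp of width and 4794 bp in the next class, lie between 6205 and 6424 bp in the 3 classes from 500 to 1500 bp, and reach 6885 bp under 100 bp.

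The lengths of the gaps beside wide regions had a dip and a rise that the gaps beside narrower regions lacked or showed weakly. There were 1021 gaps with a wide region on at least 1 side. Length classes of 1 kb exclude their lower and include their upper bound. Between 2000 and 3000 bp there were 43 gaps (4.21%), and between 3000 and 4000 bp only 27 (2.64%, 1.75 to 3.82%). The next classes held 73 gaps between 4000 and 5000 bp (7.15%, 5.65 to 8.91%), 68 up to 6000 bp and 59 up to 7000 bp, followed by 28 up to 8000 bp. Beside regions of 220 to 300 bp on the same scaffolds, in 4332 gaps with no wide region on either side, the shares declined without such a rise: 5.54% lay between 3000 and 4000 bp, 5.47% between 4000 and 5000 bp and 4.82% between 5000 and 6000 bp.

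As a single figure, there were 2.86 gaps of 4000 to 7000 bp for each gap of 2000 to 4000 bp beside wide regions (200 against 70, 95% exact binomial interval 2.17 to 3.81). Beside regions of 220 to 300 bp the figure was 1.19 (643 against 542, 1.06 to 1.33), and between neighbours that were both up to 300 bp wide it was 1.19. Gaps beside regions between 500 and 1000 bp, with none wider, lay between with 1.55 (1.43 to 1.69). The figure was 2.65 where the wide region stood at the right end of the gap and 3.12 where it stood at the left end. It was 2.76 beside wide regions of up to the median width of 1144 bp and 2.94 beside wider ones. Beside the 56 regions over 1500 bp it was lower, 1.8, against 1.22 beside regions of 220 to 300 bp on their scaffolds. Among gaps that contain no unused region number it was 2.66 beside wide regions and 1.08 beside regions of 220 to 300 bp. The length classes were chosen after the gaps had been seen, and no test was made.

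**Figure D5:**
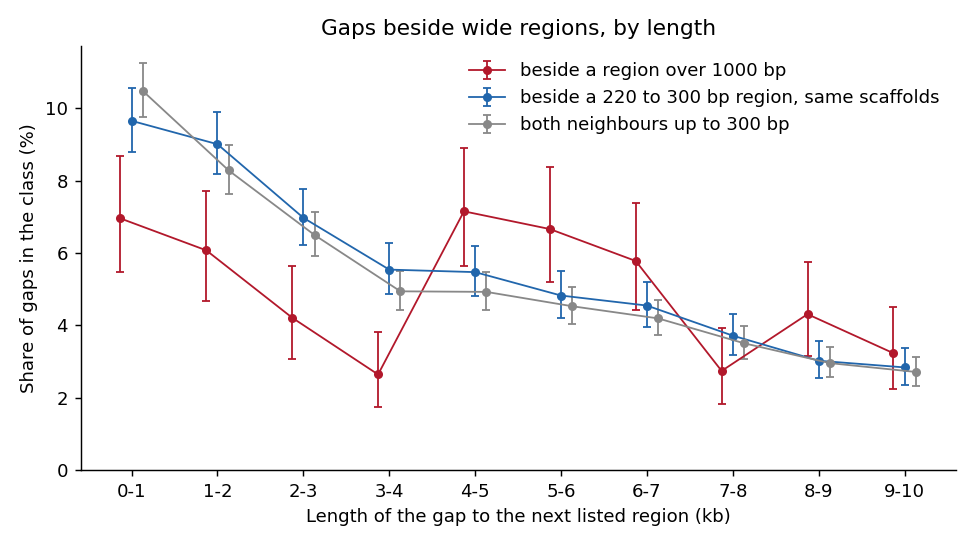
Share of gaps (%) by gap length in classes of 1 kb, up to 10 kb, for gaps beside a region over 1000 bp (red), beside a region of 220 to 300 bp on the same scaffolds with no wide region on either side (blue) and between neighbours both up to 300 bp wide (grey), with 95% exact binomial intervals. The red line is lowest at 3 to 4 kb (2.64%) and rises to 7.15% at 4 to 5 kb, while the blue line goes on falling, with 5.54% and 5.47% in these classes.

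The regions nearest to wide ones had ordinary widths. Their median width was 299.5 bp (290 to 314 bp) with the middle 50% between 231.75 and 441 bp. Regions nearest to those of 220 to 300 bp on the same scaffolds had a median of 308 bp (299 to 317 bp) with the middle 50% between 232 and 490.75 bp, and the intervals overlap. Those scaffolds were chosen for carrying a wide region, so the upper quartiles are not comparable. Without that choice, the upper quartile was 463 bp beside regions of 220 to 300 bp on all scaffolds and 456 bp beside all narrower regions. A region of 220 to 300 bp itself was the nearest one for 27.8% of wide regions and for 26.0% of the comparison regions. A region narrower than 100 bp was the nearest for 16 wide regions (2.82%, 1.62 to 4.53%) and for 4.07% of the comparison regions. The median width of the region opposite the wide one varied little with distance, while the upper quartile was higher across longer gaps. Across gaps of up to 2000 bp, that region had a median of 291 bp, across gaps of 4000 to 7000 bp one of 314 bp, and across gaps over 20000 bp one of 309 bp. The upper quartiles, from the shortest to the longest of 5 gap classes, were 377, 394.5, 447, 466 and 535 bp. The same quartiles were not computed for gaps beside narrower regions, so this rise cannot be called particular to wide regions.

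Wide regions rarely had another wide region as the nearest. This was so for 9 of 568 (1.58%, 0.727 to 2.99%), close to the 1.78% among all narrower regions of the list. The 5.23% among regions of 220 to 300 bp on the same scaffolds is not comparable, since those scaffolds were chosen for carrying a wide region. A wide region stood directly beside another in 9 pairs. The closest pair was pCRM_10909 (1464 bp, 237765 to 239228) and pCRM_10910 (1378 bp, 239885 to 241262) on Scaffold167, 656 bp apart within a span of 3498 bp. The next pairs had gaps of 5444 bp (pCRM_41128 and pCRM_41129, Scaffold790), 11059 bp (pCRM_43833 and pCRM_43834, Scaffold902), 12132 bp (pCRM_34033 and pCRM_34034, Scaffold55) and 12481 bp (pCRM_23193 and pCRM_23194, Scaffold3051). The other 4 pairs were 30314 to 42221 bp apart.

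Around wide regions the density of other listed regions was that of the list as a whole. Within 10000 bp of either edge, wide regions had 1.32 ± 1.41 other listed regions (mean ± SD), regions of 220 to 300 bp on the same scaffolds had 1.703 ± 1.52, and all narrower regions of the list had 1.34 ± 1.39. No other region lay within 10000 bp of 208 wide regions (35.7%), against 24.0% of the comparison regions and 33.8% of all narrower ones. At the crowded end, 106 wide regions (18.2%) had 3 or more, against 25.9% and 18.5%. The most surrounded were pCRM_30845 (1114 bp, Scaffold468, 430343 to 431456) and pCRM_6669 (1668 bp, Scaffold1358, 251408 to 253075) with 7 each. With 6 each followed pCRM_37196 (Scaffold641), pCRM_43815 (Scaffold901) and pCRM_4557 (Scaffold123).

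Some regions formed runs, in which each lay within 2000 bp of the next. Of the wide regions, 19 (3.26%) belonged to a run of 3 or more, against 9.08% of regions of 220 to 300 bp on the same scaffolds and 6.27% of the whole list. The longest such run with a wide member had 6 regions on Scaffold123, where pCRM_4557 supplied 1156 of 2861 listed bp. In runs of 5, pCRM_14113 supplied 1142 of 2832 bp on Scaffold1954, and pCRM_35515 supplied 1161 of 2101 bp on Scaffold592 (237797 to 244082). Each of these was the only wide region of its run, and pCRM_4557 and pCRM_35515 stood at an end of theirs.

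At the remote end, 101 of the 568 wide regions with a neighbour on the scaffold (17.8%, 14.7 to 21.2%) lay over 20000 bp from the nearest, against 11.1% of the comparison regions (9.96 to 12.3%) and 15.8% of the 28954 narrower regions with a neighbour. The 15 wide regions alone on their scaffold are not in this count, whereas they are among the 208 with no region within 10000 bp. Regions over 500 and up to 1000 bp on all scaffolds were over 20000 bp from the nearest in 18.2% of cases. Remote on both sides were 55 of the 462 wide regions with 2 neighbours (11.9%, 9.10 to 15.2%), against 9.33% of the comparison regions (8.23 to 10.5%), and these intervals overlap. The most isolated were pCRM_34826 (1052 bp, Scaffold57), 311215 bp from the nearest, pCRM_32025 (1485 bp, Scaffold497), 271247 bp away, and pCRM_35835 (1138 bp, Scaffold60), 217802 bp away. They were followed by pCRM_27400 at 192795 bp and pCRM_34537 (1008 bp, Scaffold563) at 158565 bp. All 5 were the first or last listed region of their scaffold, so that only 1 side could be measured.

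At scaffold ends and beside unused region numbers, wide regions had shares close to those of all narrower regions. They were the first or last listed region in 121 cases (20.8%, 17.5 to 24.3%), against 20.5% of all narrower regions. The share was 7.33% among regions of 220 to 300 bp on the same scaffolds, where scaffolds with many regions weigh more in the comparison set. With equal weight for each scaffold that had both kinds, the shares were 17.7% for wide regions and 15.0% for regions of 220 to 300 bp. On scaffolds with 10 or more listed regions, the order along the scaffold was divided into 3 parts. The central part held 117 of 441 wide regions (26.5%, 22.5 to 30.9%), against 32.5% of the comparison regions (30.7 to 34.3%), and these intervals overlap. Scaffolds with many regions weigh more in this comparison set too, and the parts were not compared with equal weight for each scaffold. The outer parts held 37.0% and 36.5% of wide regions, against 35.5% and 32.0% of the comparison regions. An unused region number came directly before or after 49.9% of wide regions (45.8 to 54.1%), 47.6% of the comparison regions and 51.2% of all narrower regions. None of the 33 regions that start at the first base of a scaffold was wide. With 1.89% of the whole list wide, 33 regions are too few to show a difference.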

How the data were processed

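A single deposited list of open chromatin regions was used, which gives a scaffold, a first coordinate, a last coordinate and a name for each region. It holds no score or read depth, and the depth of any region is therefore unknown. Tools that could apply to it, per the submitters' processing notes, are MACS2 2.1.2, bedtools 2.27.1, SAMtools 1.7.1, Bowtie2 2.3.4.1 and Trimmomatic 0.38, without their role. Not given in the sources used here are the genome build, the calling threshold, the handling of Tn5 offsets, any joining of nearby peaks and the pooling of libraries. No 2 listed regions lie within 300 bp of each other. How a caller or a joining step would have set widths and gaps was not tested.

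Coordinates were read as counting from 0 with the last excluded, and are printed counting from 1. Width was last minus first coordinate. Comparison regions measured 220 to 300 bp and lay on scaffolds with a wide region. Medians carry order-statistic intervals and shares exact Clopper-Pearson intervals, both at 95%. They cover counting error only, since regions are not replicates, and no test was run. The distances were checked against a brute-force calculation on simulated lists. Region numbers were read from names; 14807 of the numbers up to 45673 (32.4%) are unused.

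The members, lists and measures were chosen with earlier results of these data known. Named regions are the 10 widest, the 5 on either side of the threshold, the 5 scaffolds with most wide regions (Scaffold3 and Scaffold10 were added after their values were seen), the 5 closest wide pairs, the 5 most isolated and the 5 most surrounded; wide members of runs of 5 or more regions, chosen with their values in view, were added. Computations ran under Python 3.11.15 with SciPy 1.17.1, pandas 2.3.3 and NumPy 2.4.6, and figures with matplotlib 3.10.9.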

Additional observations from a re-analysis of the deposited data

How the results depend on the processing

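Values below are differences, wide regions minus comparison regions, unless stated. No paired analysis was possible because libraries are not separated in the list, nor was any replicate left out. Comparisons with all other listed regions and with regions that have a neighbour on both sides, the equal weighting of scaffolds for the share at scaffold ends, and all settings for the ratio of gap lengths were added after seeing the data.

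The number of wide regions (583) was 946 over 900 bp, 210 over 1200 bp, 56 over 1500 bp and 305 on scaffolds with 20 or more regions. It was 257 with a listed neighbour and no unused number on either side, and 2302 after merging regions within 1000 bp. The setting without unused numbers also drops the first and last listed region of each scaffold. Their share of covered sequence (6.35%) was 2.72% over 1200 bp, 0.915% over 1500 bp and 26.3% after merging. The scaffolds of wide regions (480) numbered 185 over 1200 bp, 55 over 1500 bp and 224 with 20 or more regions. They numbered 218 in the setting without unused numbers and 1151 after merging.

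The difference in median distance to the nearest region (2137.5 bp) stayed positive in all 14 settings. It was 1116.5 bp against regions over 300 and up to 1000 bp, 1197 bp on scaffolds with 20 or more regions, 397 bp after merging and 928.5 bp against all other regions. Over scaffolds its mean was 6674 bp and its median 1101 bp. The difference in the share with a neighbour within 2000 bp (-10.6 percentage points) stayed negative in all 14 settings, with -5.10 on scaffolds with 20 or more regions and -2.19 after merging. The ratio of gaps of 4000 to 7000 bp to those of 2000 to 4000 bp beside wide regions (2.86) was 1.8 over 1500 bp. After merging, where most members are joined regions, it was 1.80. Beside the comparison regions both settings gave 1.22. The ratio beside wide regions was 2.56 to 2.87 in the other 6 settings.

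The difference in width of the nearest region (-8.5 bp) was -30 bp over 1500 bp and -46.6 bp as a mean over scaffolds. It was -3.5 bp against comparison regions on all scaffolds, which were not chosen for carrying a wide region. That in the share with a wide nearest region (-3.64 points) was -6.12 over 1500 bp, -8.17 with scaffolds weighted equally, and only -0.337 and -0.198 against comparison regions on all scaffolds and against all other regions, where the choice of scaffolds no longer acts. For the mean number of regions within 10000 bp (-0.379) the same 4 settings gave -0.166, -0.141, -0.0716 and -0.0186. It was -0.104 on scaffolds with 20 or more regions, and turned to 0.0369 after merging.

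The difference beside unused numbers (2.31 points) was 9.64 over 1500 bp, and turned to -0.749 against comparison regions on all scaffolds, -3.05 on scaffolds with 20 or more regions, -1.32 against all other regions and -1.63 with neighbours on both sides. That in the share at scaffold ends (13.4 points) turned to -0.372 with comparison regions on all scaffolds. It was 0.258 against all other regions, 2.73 with scaffolds weighted equally, 1.01 on scaffolds with 20 or more regions, 6.54 on those extending to 100000 bp and 7.75 after merging. Neither has a stable direction. Distances between midpoints do not bear on the other measures and were computed for the nearest region only, and unused numbers were not counted once narrow regions were removed. Keeping regions with a listed neighbour and no unused number on either side fixes the shares beside unused numbers and at scaffold ends, so it was not run for these. Read depth is unknown, so weak and strong regions cannot be told apart.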

Other observations

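Of the 20 widest open chromatin regions, 6 (30%, 95% exact binomial interval 11.9 to 54.3%) lay on scaffolds with fewer than 5 listed regions, as did 10 of the 56 regions over 1500 bp (17.9%, 8.91 to 30.4%). The share was 10.8% among the 527 wide regions of up to 1500 bp (8.30 to 13.8%) and 12.6% in the whole list (12.2 to 12.9%), and all these intervals overlap. The 56 regions over 1500 bp had 1.68 ± 1.64 other listed regions within 10000 bp (mean ± SD). The values were 1.29 ± 1.38 for wide regions of up to 1500 bp and 1.34 ± 1.39 for all regions of up to 1000 bp. The spreads over regions are large beside the differences between these means, but they do not measure the uncertainty of the means. The means are given as a description only. These groups were chosen after their values were seen.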
